A study of Mus musculus with 4 samples.

Results

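The hypoxia-inducible factors and their regulators were followed as 9 genes through RNA polymerase II (Pol II) maps of 4 mouse organs. The genes were taken by name: the alpha subunit genes Epas1, Hif1a and Hif3a, the shared partner Arnt, the regulators Vhl, Egln1, Egln3 and Hif1an, and the target Vegfa. All 9 were found among 21887 protein-coding genes of the gene table used. Each map is 1 list of genomic regions that were called as rich in Pol II after chromatin immunoprecipitation with antibody 4H8, which binds the C-terminal domain of the polymerase. The hearts, kidneys, livers and lungs were whole, flash-frozen organs of 2 C57BL/6 mice, with no treatment or genotype contrast. The sources used here give neither the sex and age of the animals nor their oxygen supply. As each organ has 1 list (n = 1), values come without a replicate error and organs were compared without a test.

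Cells sense oxygen through the stability of HIF alpha subunits. With oxygen present, the prolyl hydroxylases encoded by Egln1 and Egln3 mark an alpha subunit, the Vhl protein binds the marked form and leads it to the proteasome, and the asparaginyl hydroxylase encoded by Hif1an blocks coactivator binding. When oxygen falls, the alpha subunit pairs with the Arnt protein and binds DNA at sites with the core ACGTG or GCGTG. Much of this control acts on the protein, so Pol II on these genes shows where the polymerase lay and not pathway activity. The lists hold no measure of RNA. Hif1a is expressed in most cells, Epas1 is known for its role in endothelium and in the renal cells that make erythropoietin, Hif3a has forms that restrain the others, and Egln3 and Vegfa are themselves HIF targets.

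The lists rested on 9880184 tags (reads assigned to a position) in heart and 16589890.5 in kidney, with 20058183 in liver and 13296938 in lung. All tag values below are scaled to 10000000 tags per organ. The lists held 61956 to 101051 regions, and the share of tags inside regions ran from 32.1% in lung to 55.1% in liver. Each organ was checked by 6 defining genes of its own parenchyma, the heart muscle, kidney tubule, hepatocyte or lung epithelium. All 6 were covered over at least 50% of their span in their own organ, and at most 1 of the 6 in any other. The exceptions were Cdh16 of the kidney tubule set, at 65.9% in heart, and Sftpc of the lung epithelium set, at 74.7% in liver. Below 50%, Sftpb of that lung set stood at 40.1% in liver. Of the hepatocyte set, Ttr stood at 42.6% in heart and Apoa1 at 46.6% in heart, 35.0% in lung and 34.1% in kidney. Cover of a gene was thus not confined to the organ it defines. In bulk organs, fewer cells of a type and less polymerase per cell cannot be told apart.

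The highest tag totals in a single region were found on Egln1 and Epas1 in heart, Epas1 in lung and liver, and Vegfa in liver and heart. Cover is the percent of a gene's annotated span, introns included, that lay inside called regions, and a gene at 50% or more is called covered. In heart 4 of 9 members were covered (Epas1, Hif1a, Egln1 and Vegfa), against 16.1% of protein-coding genes. In kidney 3 were covered (Hif1a, Vhl and Vegfa), against 21.1% of protein-coding genes. In liver 4 were covered (Epas1, Vhl, Egln3 and Vegfa), against 21.9%. In lung 3 were covered (Epas1, Vhl and Vegfa), against 15.1%. The median cover of the members was 47.9% in heart and 37.1% in kidney, with 44.7% in liver and 21.5% in lung, beside medians over all protein-coding genes of 2.26%, 5.07%, 2.76% and 3.88%. No member lacked a region in heart or kidney, against 43.0% and 39.0% of all genes, and Hif3a lacked one in liver and Egln3 in lung, against 43.3% and 39.7%. Over the 4 lists together 28.0% of all genes had no region, so the medians of all genes include many genes with no called Pol II. Vegfa was the one member covered in all 4 lists, a state shared by 8.04% of all genes. Hif3a, Arnt and Hif1an were covered in none, as were 66.9% of all genes.

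**Figure D1:**
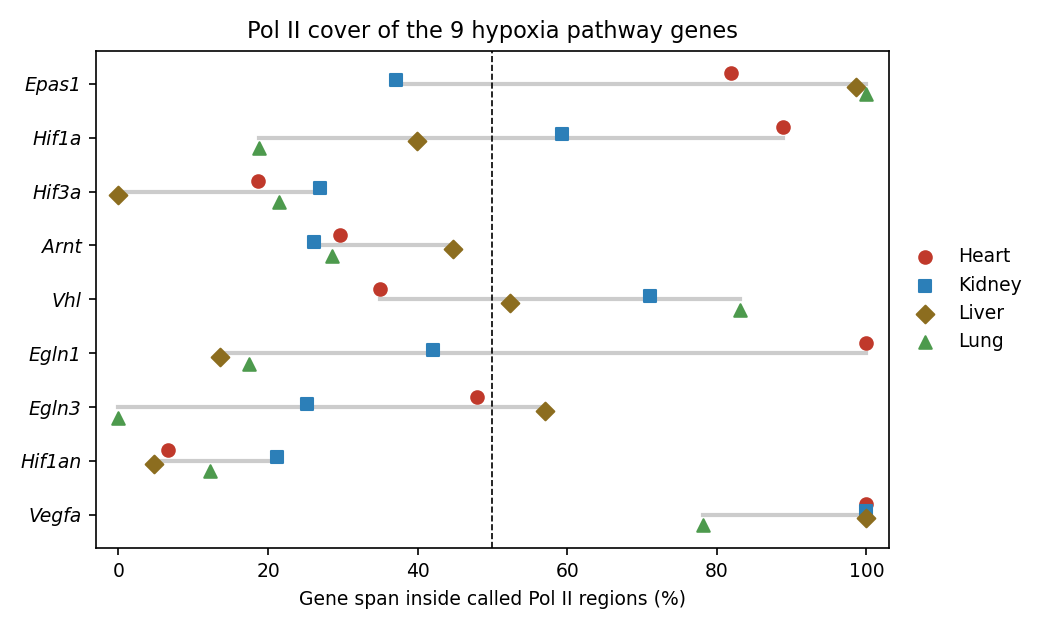
Percent of each gene's span inside called Pol II regions (x axis) for the 9 genes (y axis), with 1 point per organ (n = 1 list each), a grey bar from the lowest to the highest organ and a dashed line at 50%. Egln1 has the widest bar, from 13.6% in liver to 100% in heart, and Hif1an has the narrowest, all below the line.

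Promoter letters are shown for Egln1, Egln3 and Hif3a, whose starts lay inside a region in some lists only, and for Hif1a, whose HIF core lies within a CACGTG. The 250 bases before the start are printed 5′ to 3′ on the strand of the gene, from RefSeq on GRCm38.p6, with capitals at ACGTG or GCGTG on either strand (CACGT and CACGC read on the other). Of the 9 members, 8 were in the promoter table. The Egln1 stretch is chr8:124949255-124949504 on the minus strand, that of Egln3 is chr12:54203875-54204124 on the minus strand, that of Hif3a is chr7:17062428-17062677 on the minus strand, and that of Hif1a is chr12:73907617-73907866 on the plus strand.
Egln1: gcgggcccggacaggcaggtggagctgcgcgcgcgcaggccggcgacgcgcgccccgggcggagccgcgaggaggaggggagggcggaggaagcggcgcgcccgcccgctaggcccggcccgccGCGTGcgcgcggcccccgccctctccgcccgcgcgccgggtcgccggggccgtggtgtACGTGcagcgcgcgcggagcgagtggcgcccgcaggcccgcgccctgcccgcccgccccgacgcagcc
Egln3: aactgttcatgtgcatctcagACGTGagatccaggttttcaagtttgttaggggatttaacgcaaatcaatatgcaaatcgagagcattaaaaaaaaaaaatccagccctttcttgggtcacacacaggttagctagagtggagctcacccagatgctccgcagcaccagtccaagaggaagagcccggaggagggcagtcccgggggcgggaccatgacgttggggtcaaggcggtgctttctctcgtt
Hif3a: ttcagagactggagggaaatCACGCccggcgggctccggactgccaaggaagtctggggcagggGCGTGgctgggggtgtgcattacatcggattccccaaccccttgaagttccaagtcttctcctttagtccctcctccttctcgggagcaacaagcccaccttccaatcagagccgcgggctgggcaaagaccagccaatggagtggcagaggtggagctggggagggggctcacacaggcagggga
Hif1a: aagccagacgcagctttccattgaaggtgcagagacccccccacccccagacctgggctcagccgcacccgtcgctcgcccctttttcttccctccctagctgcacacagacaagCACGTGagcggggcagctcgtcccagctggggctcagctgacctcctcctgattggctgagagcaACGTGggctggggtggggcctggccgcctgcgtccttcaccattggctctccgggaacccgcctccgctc
ACGTG stood in 17.8% and GCGTG in 33.8% of 21263 promoters of protein-coding genes over the same 250 bases. The Hif1a stretch held 3 ACGTG matches, of which a pair are the 2 strands of 1 CACGTG, a motif found in 6.63% of promoters. Hif3a held 2 GCGTG matches, Egln1 held 1 of each and Egln3 held 1 ACGTG. Arnt held 1 GCGTG, and Vhl and Hif1an held neither core. Vegfa has a pair of table entries, of which the one at the 5′ end of the span held neither and the one inside the gene held 1 of each, while 44.0% of all promoters held at least 1 of the cores. A match is a run of letters and not a measured HIF site. By base composition Egln1 stood at the edge: 86.0% of its 250 bases were G or C, above 99.9% of promoters, against 50.8% for Egln3, 62% for Hif3a, 66.4% for Hif1a and a median of 55.6%. The Egln1 stretch also held 51 CpG pairs, where the median promoter held 10.

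Epas1, which encodes HIF-2 alpha (chromosome 17, 86753864 to 86833410 in mm10, 79.5 kb), was covered over 100% of its span in lung, 98.5% in liver, 81.9% in heart and 37.1% in kidney. In lung 1 unbroken region of 91.9 kb (chromosome 17, 86748510 to 86840434) took in the whole gene and reached 5.35 kb and 7.02 kb past its ends. That region held 3004.8 tags, ranked 5 of 101051 in the lung list and 3 among regions on nuclear chromosomes. No other annotated gene lay in it. In heart the leading region was 65.5 kb long (86750331 to 86815848), covered 77.9% of the gene from its lower-coordinate end and held 3031.3 tags, at rank 64 of 81887. Its caller score was 9.0, the lowest in the heart list, and with only regions at or above the median score of their list Epas1 fell to 3.98% in heart. As scores tie, this subset kept 47528 of 81887 regions in heart, 54478 of 88200 in kidney, 31341 of 61956 in liver and 58222 of 101051 in lung. In liver a 68.9 kb region (86750520 to 86819396) held 2390.5 tags at rank 282 of 61956, and 2 further regions took up nearly all of the rest.

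Kidney stood apart for Epas1. The gene held 12 separate kidney regions, 4 of them single 500 bp windows, and the longest (86752681 to 86763802) was 11.1 kb with 212.8 tags, at rank 3886 of 88200. The kidney list had no region within 1 kb of the higher-coordinate end, while all 4 lists covered the 2 kb around the lower one without a gap. Per kb of region, the leading Epas1 regions held 46.3 tags in heart (44.6 to 48.0), 34.7 in liver (33.7 to 35.7), 32.7 in lung (31.7 to 33.7) and 19.1 in kidney (17.2 to 21.2). These are exact Poisson 95% intervals that cover counting error only, and those of liver and lung only just do not overlap. Over all regions the median was 20.9 tags per kb in heart, 15.2 in liver, 17.6 in lung and 17.3 in kidney. The leading Epas1 region lay above the median in all 4 lists, and in kidney it was nearest to it. By tags per kb it ranked 26105 of 88200 in kidney, 336 of 81887 in heart, 1285 of 61956 in liver and 144 of 101051 in lung. Spread over the gene, the tags allotted to Epas1 came to 37.0 per kb of gene in heart, 32.7 in lung, 31.2 in liver and 7.05 in kidney. The 50 kb on the lower-coordinate side of Epas1, a stretch with no annotated gene, was covered over 55.2% in heart, 40.2% in lung, 38.2% in liver and 3.36% in kidney.

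Of 10 endothelial marker genes, 5 were covered in heart, 3 in lung, 1 in liver and 1 in kidney, against 16.1%, 15.1%, 21.9% and 21.1% of all genes, with median covers of 51.4%, 25.8%, 0.812% and 2.85% and no marker at 0 in heart or lung. The part of endothelial content in the Epas1 values was not tested. By the Euclidean distance between the 4 covers, in percentage points, the nearest of 4689 genes with a span between 0.5 and 2 times that of Epas1 were Nfix (25.2 points), Rassf3 (29.2 points) and Stat3 (30.7 points). Nfix was at 96.2% in heart and 32.5% in kidney, with 92.4% in liver and 80.7% in lung. No gene of this length came within 25 points of the Epas1 profile over these 4 lists.

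**Figure D2:**
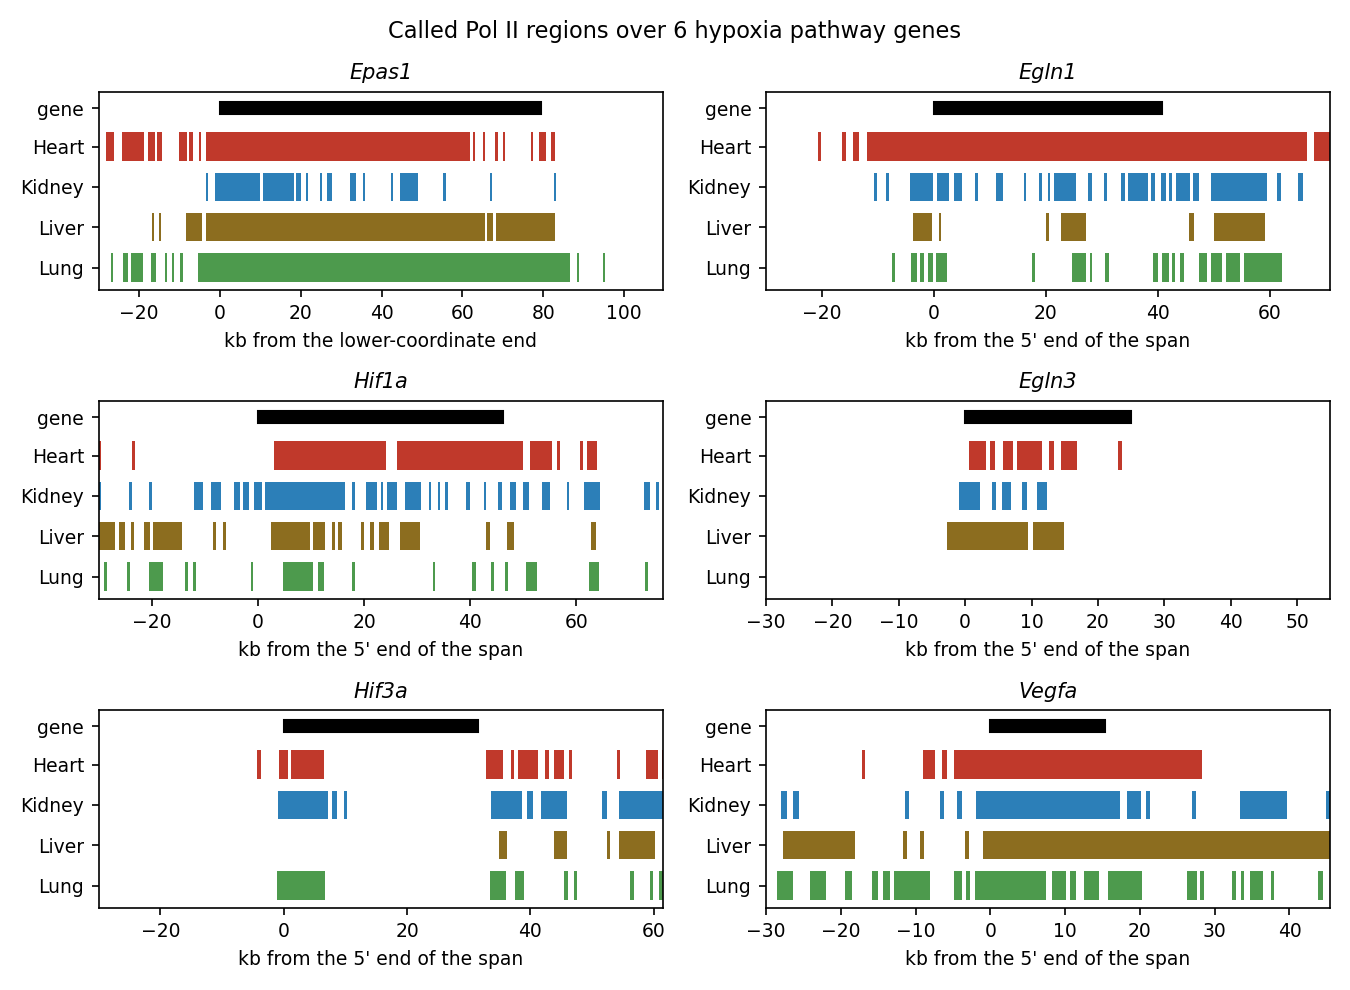
Called Pol II regions of each organ (coloured bars) over 6 genes (black bar: annotated span) and 30 kb either side, in kb from the 5′ end of the span, or from the lower-coordinate end for Epas1. Unbroken blocks fill Epas1 in lung, Egln1 in heart and Vegfa in heart, kidney and liver, whereas Hif3a is marked only near its 5′ end and Egln3 has no bar in lung.

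Hif1a, the alpha subunit gene of HIF-1 (chromosome 12, 73901324 to 73947554, 46.2 kb), followed another order. Its cover was 88.9% in heart and 59.3% in kidney, with 39.9% in liver and 18.8% in lung, so lung, where Epas1 was covered end to end, was lowest for Hif1a. In heart 2 regions, 21.1 kb (73904311 to 73925427) and 23.8 kb long (73927572 to 73951345), made up the whole of this cover. They held 610.8 and 618.4 tags, and the one nearer the 3′ end ran 3.79 kb past it and over the non-coding RNA gene Gm15283, which overlaps Hif1a. Tags of the 2 genes cannot be told apart where they overlap, as Pol II signal carries no strand. In kidney, where Hif1a fell to 22.8% with regions at or above the median score and to 49.5% with regions of at least 1 kb, the gene held 13 regions, in liver 9 and in lung 6. The leading region of each of these organs lay over the start given by the promoter table, 73907867, which is inside the annotated span, and held 357.4 tags in kidney, 162.8 in liver and 101.5 in lung. Per kb of region these came to 23.7 in kidney (21.8 to 25.7), 22.2 in liver (19.9 to 24.8) and 18.6 in lung (15.6 to 22), intervals that overlap between neighbours. The heart region over the start had 28.9 (26.7 to 31.3), above the intervals of the other organs. The covers nearest to those of Hif1a among 6498 genes of like span included those of Nampt (19.0 points) and Epc1 (19.6 points).

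Hif3a (chromosome 7, 17030993 to 17062427, 31.4 kb) had its regions at the 5′ end alone. Cover was 27.0% in kidney, 21.5% in lung, 18.7% in heart and 0% in liver. In lung all of it was 1 region of 7.87 kb (17055684 to 17063558) that began 1.13 kb before the gene and held 201.2 tags, at rank 2101. In kidney the leading region (17055192 to 17063352) was 8.16 kb long with 218.8 tags, and in heart a 5.25 kb region just inside the gene (17055922 to 17061173) held 240.9. The heart region was the densest at 45.9 tags per kb (40.2 to 52.1), against 26.8 in kidney (24.1 to 29.7) and 25.6 in lung (22.6 to 28.8). With the span cut into 10 equal parts from the 5′ end, no list had a Hif3a region beyond the first 4. In liver no region touched the gene or the 1 kb on either side of its start, and 43.3% of all genes likewise had no liver region. The liver stretch without a region ran over 1883 kb, from 17027564 to 18910475, and took in 26 protein-coding genes, among them many of the Psg and Ceacam families. Among genes with no liver region, 83.6% lay in a shorter stretch.

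Arnt, the common partner of the alpha subunits (chromosome 3, 95434367 to 95497240, 62.9 kb), stayed under 50% in all 4 lists. It was covered over 44.7% in liver, 29.7% in heart, 28.5% in lung and 26.2% in kidney. This order depended on the regions kept: at or above the median score liver was lowest at 9.16%, against 27.0% in heart, 19.1% in kidney and 18.5% in lung, and with regions of at least 1 kb lung fell to 15.1%. The start of the gene was covered in all 4 lists, and the 50% of the span nearest the start was covered more than the rest: 72.2% against 17.2% in liver, 50.9% against 8.43% in heart, 40.5% against 16.6% in lung, and 43.5% against 8.92% in kidney. Liver had the longest region, 18.2 kb (95432949 to 95451166) with 581.1 tags. The leading regions of kidney (135.3 tags), heart (131.6) and lung (76.3) were 3.8 to 6.86 kb long. Of the 21 lung regions in Arnt, 14 were single 500 bp windows, the shortest the caller gives.

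**Figure D3:**
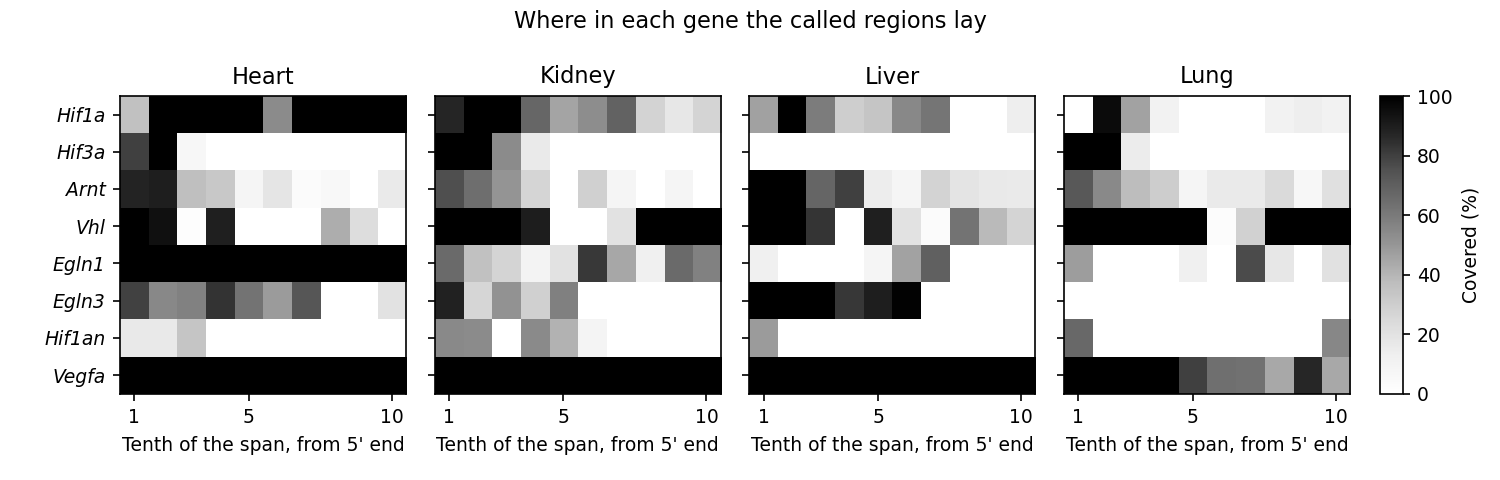
Covered percent (grey scale, white 0% to black 100%) in 10 equal parts of the span from the 5′ end (x axis) for the 8 genes whose strand the promoter table gives (rows), in 1 panel per organ. Hif3a is dark on the left alone, Arnt is darkest there, Vegfa is black in 3 panels, and Egln1 is black throughout in heart and uneven elsewhere, with up to 82.0% in a part in kidney.

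Egln1, which encodes PHD2, the main oxygen-sensing prolyl hydroxylase (chromosome 8, 124908587 to 124949254, 40.7 kb), had the widest range of the 9 genes. It was covered over 100% in heart, 42.0% in kidney, 17.4% in lung and 13.6% in liver. In heart 1 region of 78.7 kb (124882568 to 124961247) with 3702.9 tags, at rank 44 of 81887, took in the whole gene, began 12.0 kb before its start and ran 26.0 kb past its 3′ end. The heart region also spanned Sprtn and Exoc8 and reached into Gnpat, and the non-coding RNA gene Gm46060 lies inside Egln1, so its tags are not those of Egln1 alone. Its caller score was again 9.0, and with regions at or above the median score no heart region was left on Egln1. Exoc8 was covered over 100% in kidney, 100% in liver and 82.0% in lung as well, and Sprtn over 64.8%, 27.3% and 48.4%. Gnpat was at 95.7% in heart and 19.1% in kidney, with 10.7% in liver and 44.9% in lung, so its cover was likewise highest in heart, while that of Exoc8 was 100% in 3 lists. Elsewhere the leading Egln1 regions were small: 85.0 tags over 4.52 kb in liver, 56.1 over 3.91 kb in kidney and 44.4 over 2.62 kb in lung. Those 3 overlapped one another in the middle of the gene, between 124922041 and 124927746.

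Around the Egln1 start the lists differed too. The 300 bases from 250 before to 50 after the start lay wholly inside the heart region. In kidney a gap of 0.737 kb fell over it (124948712 to 124949449), in lung one of 0.661 kb (124948806 to 124949467) and in liver one of 1.09 kb (124948434 to 124949526), each with a region on both sides. Of 335 promoters with at least 80% G or C, those with a region within 1 kb had the window wholly covered in 55.1% of cases in heart and 58.4% in kidney, with 73.8% in liver and 37.5% in lung. For promoters of 60 to 70% these shares were 77.0%, 81.1%, 87.0% and 75%. The part of base composition in the Egln1 gap was not tested. The closest covers to those of Egln1 among 6855 genes of like span were those of Fblim1 (14.1 points), the lipoprotein lipase gene Lpl (15.2 points) and the lipoprotein receptor gene Vldlr (19.1 points). Lpl was at 100% in heart and 51.0% in kidney, with 1.33% in liver and 18.2% in lung, and Vldlr at 94.1%, 33.7%, 0% and 8.70%. All 6 heart muscle markers were covered in heart and none in the other lists, and the part of muscle cell content in the Egln1 values was not tested.

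Egln3, the gene of the PHD3 hydroxylase (chromosome 12, 54178981 to 54203874, 24.9 kb), was covered over 57.1% in liver, 47.9% in heart, 25.2% in kidney and 0% in lung. The liver cover came from 2 regions, 12.2 kb (54194355 to 54206579) and 4.69 kb (54188967 to 54193660), with 275.4 and 97.7 tags. The longer began 2.70 kb before the start, and together they left the last 4 of 10 equal parts of the gene bare. Kidney had 5 regions, all in the 50% of the gene nearest the start, led by 47.3 tags over the start itself. Heart had 7 regions, led by 67.3 tags, and the one nearest the start ended at 54203365, short of the start at 54203874, so the heart value just under 50% came from inside the gene. In lung 677 kb held no region around Egln3 (53973903 to 54651230), and Egln3 was the one protein-coding gene wholly inside. A stretch of this size was usual for such genes: 39.7% of all genes had no lung region, and their median stretch was 665 kb. Sync (11 points), Sdha (11.9 points) and Zfp445 (16.2 points) were nearest to Egln3 in cover among 7800 genes of like span.

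Vhl, whose product recognises the hydroxylated alpha subunits (chromosome 6, 113623994 to 113631634, 7.64 kb), was covered over 83.1% in lung, 71.0% in kidney, 52.3% in liver and 35.0% in heart. With regions at or above the median score no list covered Vhl, the highest value being 32.8% in lung, and the liver value was 39.2% with a minimum of 10 tags per region. The start was inside a region in all 4 lists. The leading regions held 176.7 tags in liver and 148.0 in kidney, with 89.6 in heart and 88.7 in lung, and all began before the gene, by 1.49 kb in lung to 7.54 kb in liver, where the region reached the end of the neighbouring gene Brk1. Per kb of region, heart was highest at 25.6 tags (20.6 to 31.5), against 19.1 in kidney (16.8 to 21.6), 18.2 in liver (16.4 to 20.2) and 16.6 in lung (13.8 to 19.9). Neighbours in this order overlap, while the heart interval lies above those of liver and lung. By cover heart was lowest and lung highest, and by tags per kb of the leading region heart was highest and lung lowest. The heart list also had the highest median over all its regions, 20.9 tags per kb, where the lung list had 17.6. The part of the caller's threshold in these opposite orders was not tested.

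Hif1an, the gene of the asparaginyl hydroxylase FIH (chromosome 19, 44562854 to 44576274, 13.4 kb), had the lowest peak cover of the 9 genes. It stood at 21.2% in kidney, 12.2% in lung, 6.62% in heart and 4.81% in liver. A region sat over the start in every list, with 80.5 tags over 3.93 kb in kidney and 50.0 over 1.81 kb in lung, and with 39.6 over 1.98 kb in liver and 20.2 over 0.987 kb in heart. The lung region was dense for its list, at rank 765 of 101051 by tags per kb with 27.7 (21.4 to 35.2), against 20.5 in kidney (17.2 to 24.3), 20.1 in liver (15.9 to 25) and 20.5 in heart (12.5 to 31.6). All of these intervals overlap.

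Vegfa, the vascular growth factor gene and a HIF target (chromosome 17, 46016993 to 46032377, 15.4 kb), was covered over 100% in heart, kidney and liver and 78.2% in lung. A cover of 100% was found for 5.56% of all genes in heart, 7.59% in kidney and 9.96% in liver, and for 4.36% in lung, where Epas1 was the one member at 100%. In liver the region was 46.5 kb long (45986838 to 46033293) with 1604.3 tags at rank 531, and it ran 30.2 kb past the 3′ end of the gene. That region scored below the median of the liver list, and without it Vegfa had no cover there. In heart the region of 33.2 kb (46004020 to 46037189) held 1356.3 tags at rank 275 and ran 13 kb past the 3′ end. In kidney the region (46014981 to 46034350) was 19.4 kb long, held 585.6 tags at rank 1019 and stopped 2.01 kb past that end. Lung had 4 regions, led by 9.41 kb over the start (46024994 to 46034409) with 233.5 tags at rank 1662. No annotated gene other than Vegfa lay in any of these regions. Per kb of region the order was heart at 40.9 tags (38.7 to 43.1), liver at 34.5 (33.4 to 35.7), kidney at 30.2 (28.4 to 32.2) and lung at 24.8 (22.1 to 27.7), with no 2 intervals overlapping. The shares of tags in regions and the caller's tag thresholds also differed between these lists, and their part in this order was not tested.

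**Figure D4:**
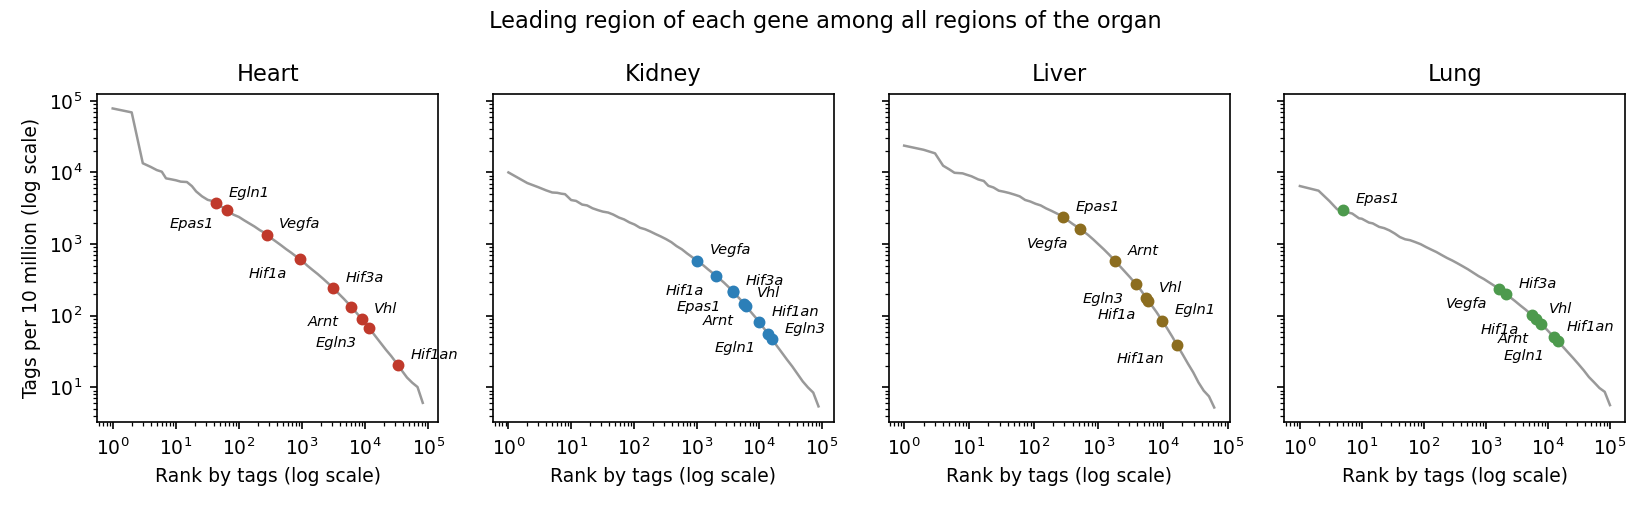
Tags of each region (scaled to 10000000 per organ, y axis, log scale) against its rank in the list (x axis, log scale), as a grey curve for all regions of an organ with the leading region of each gene as a labelled point. Epas1 is at rank 5 in lung, Egln1 at 44 in heart and Epas1 at 64 in heart. Hif1an is the lowest labelled point in heart and liver, Egln3 in kidney and Egln1 in lung.

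Of the 8 members with a known start, a region touched the 300 base window at the start for 7 in heart and 8 in kidney, with 6 in liver and 7 in lung, against 43.3%, 48.8%, 48.0% and 44.4% of protein-coding genes. Among genes with a region in their span, the counts were 7 of 8 members in heart and 8 of 8 in kidney, with 6 of 7 in liver and 7 of 7 in lung, against 75.6%, 79.1%, 83.0% and 72.7% of all such genes, so a region at the start was about as common for the members as for other genes with Pol II. The exceptions were Egln3 in heart and lung and Hif3a and Egln1 in liver. Egln1 was counted in kidney and lung through 55 and 37 bases of the window only, and its start itself lay in a gap there. Within 1 kb of the start the counts were 8 in heart and 8 in kidney, with 7 in liver and 7 in lung, against 49.7%, 54.8%, 51.4% and 52.4%. Where a member had a region, the 50% of the span nearest the start was covered more than the rest in 5 of 8 in heart and 6 of 8 in kidney, with 5 of 7 in liver and 6 of 7 in lung, against 65.9%, 65.4%, 61.1% and 68.5% of genes with a region, so this was near the background. Egln1 ran against it in kidney, where 31.7% of the start side and 52.3% of the other side were covered. The same held for Egln1 in liver (4.09% and 23.0%) and lung (11.9% and 22.9%), and for Hif1a in heart (87.1% and 90.7%).

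Other genes of the pathway were described as 4 lists with 72 distinct genes. Of 18 further HIF complex and regulator genes, 8 were covered in heart and 10 in kidney, with 14 in liver and 9 in lung, against 16.1%, 21.1%, 21.9% and 15.1% of all genes. The median covers were 38.8%, 59.7%, 72.1% and 46.2%. The lead of liver was lost in part of the alternatives, with 6 genes in liver and 3 in lung at or above the median score, and 8 in liver at 75% of the span. The chaperone gene Hsp90ab1, the scaffold gene Rack1 and the elongin gene Elob were covered over 100% in all 4 lists, and the chaperone gene Hsp90aa1 over 73.7% in liver and 100% in the rest. Egln2, the remaining prolyl hydroxylase of the family, was covered in every list, from 87.6% in heart to 100% in liver, unlike Egln1 and Egln3. Its span (chromosome 7, 27158658 to 27166802) is shorter than those of Egln1 and Egln3, and shorter spans are filled by fewer kb of region. The genes that share its regions were not examined. By contrast, the scaffold gene Cul2, named after its values were seen, was at 1.52% in heart and 3.94% in kidney, with 20.3% in liver and 0.210% in lung; its product acts with the Vhl protein.

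Of 36 HIF target genes outside the 9, 14 were covered in heart and 15 in kidney, with 12 in liver and 11 in lung, against the same shares of all genes, and the median covers were 34.7%, 41.5%, 29.3% and 28.4%. With regions at or above the median score 6 were covered in heart and 4 in lung. The glycolytic gene Aldoa, the mTOR inhibitor gene Ddit4 and the transcriptional repressor gene Bhlhe40 were covered over 100% in all 4 lists. Eno1, another glycolytic gene, was at 100% in heart, kidney and liver and 45.7% in lung. Ldha, the lactate dehydrogenase A gene, was at 62.4% in heart and 98.0% in kidney, with 100% in liver and 62.9% in lung, and the mitophagy gene Bnip3 at 83.5%, 84.3%, 100% and 33.9%. Ndrg1 was covered in kidney alone, over 100%, against 32.3% in heart, 37.8% in liver and 3.26% in lung. Further contrasts were picked after the values were seen. The hexokinase gene Hk2 was at 75.5% in heart, 31.1% in lung and 0% in kidney and liver, and the carbonic anhydrase gene Car12 at 87.7% in kidney and at most 2.06% elsewhere. The erythropoietin gene Epo had no region in kidney, heart or liver and 17.9% in lung. Its span is short (chromosome 5, 137483020 to 137485816). A single 500 bp window, the shortest the caller gives, is enough for such a value, so this contrast lies at the caller's floor.

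Of 12 other factors of the bHLH-PAS family, to which the alpha subunits and Arnt belong, none was covered in heart or kidney and 1 each in liver and lung. That gene was Ahr, the dioxin receptor, at 93.9% in liver and 64.6% in lung. The share of these 12 factors, which leave out the alpha subunits and Arnt, was thus at most 8.33%. That of all genes ran from 15.1% to 21.9%. The median covers of the 12, 6.47% for heart and 5.17% for kidney, were above those of all genes, 2.26% and 5.07%. Those of 3.36% for lung and 0.531% for liver were below, against 3.88% and 2.76%. With 12 genes and no test, these values describe the list only. Of 9 VEGF family and receptor genes, 4 were covered in heart and 1 in kidney, with 2 in liver and 3 in lung, which as shares are 44.4%, 11.1%, 22.2% and 33.3%, against 16.1%, 21.1%, 21.9% and 15.1% of all genes. The kidney share was thus below that of all genes and the liver share near it, and with regions at or above the median score none was covered in kidney or lung and 1 in liver. Vegfb, a relative of Vegfa, was at 100% in all 4 lists. The receptor gene Kdr was at 100% in heart, 65.4% in lung, 11.5% in liver and 3.03% in kidney, and the co-receptor gene Nrp1 at 87.0%, 66.7%, 61.7% and 35.4%.

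**Figure D5:**
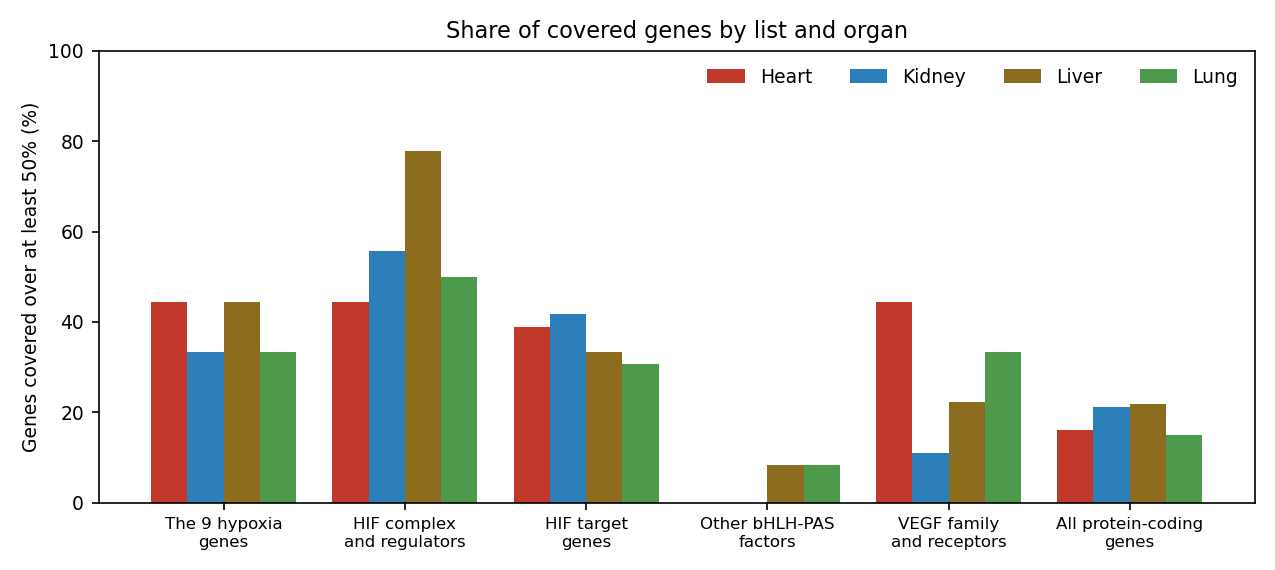
Share of genes covered over at least 50% of their span (y axis, percent) in each organ (bars) for the 9 genes, the 4 pathway lists and all 21887 protein-coding genes (x axis). Bars of the HIF complex list reach 77.8% in liver, those of the other bHLH-PAS factors stay at or below 8.33%, and all genes lie between 15.1% and 21.9%.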

How the data were processed

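Pol II was profiled in 1 list of regions per organ. The submitters' processing notes name Bowtie2 2.2.8, HOMER 4.8 and the build mm10. Regions were called in histone style, joining windows of 500 bp, at a Poisson p threshold of 0.001 and with no control library named in the command, per the file headers. The deposited signal is the tag count of a region scaled by the authors to 10000000 tags. The deposited score and the deposited ratio (clonal fold change) are the caller's own, per the file headers, and region length was deposited too. The ratio was not used. The study's description speaks of 8 libraries, while 4 lists were analysed here, 1 per organ. A list may join more than 1 library, and its tag total is taken as given. The sources used here say neither whether both mice were pooled nor how tags matching several places were treated.

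Gene spans and starts came from RefSeq tables of GRCm38.p6, the assembly of mm10. Of the 9 members, 8 had a start and strand, and Epas1 was not in the promoter table. The gene Ero1l was matched through its synonym Ero1a. Cover, ranks, tags per kb and motif matches were computed with Python 3.11.15, pandas 2.3.3 and scipy 1.17.1. Region limits are printed as deposited, with a length of end minus start. Tags allotted to a gene assume an even spread along a region. Covered lengths were tested on simulated data, where 500 of 500 spans equalled per-base counts. No test was run, as each organ has 1 list. The members and lists were chosen with earlier results of these data known. The text names all 9 members, the 3 genes per list and organ with the highest cover among those at 50% or more, the 3 genes of nearest cover for members with a range of at least 50 points that reach 50%, and genes sharing a region with a member; genes added after their values were seen are marked so. A gene that this rule names is not reported here. Alternatives concerned the regions kept, the 50% limit, the span and the ranking value.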

Additional observations from a re-analysis of the deposited data

How the results depend on the processing

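Of the 36 member covers, all stayed on their side of 50% with equal numbers of regions by tags (61956 per list) and with spans extended by 1 kb. Vhl in liver fell to 39.2% with a minimum of 10 tags. With regions of at least 1 kb, an alternative chosen after seeing the data, Vhl in liver fell to 28.3% and Hif1a in kidney to 49.5%. Keeping regions at or above the median score of each list lost 7 values: Epas1 fell to 3.98% in heart, Egln1 to 0% in heart, Vegfa to 0% in liver, Hif1a to 22.8% in kidney, and Vhl to 32.8% in lung, 17.5% in liver and 0% in kidney. The long regions of Epas1 and Egln1 in heart and of Vegfa in liver fell away because they score low (9.0 for Epas1 and Egln1 in heart, the lowest of that list). The score did not follow the tags: the heart Egln1 region ranked 44 by tags and 61350 by score. A 500 bp heart window in Epas1 with 13.2 tags scored 12.0 and was kept. The leading Epas1 regions of lung (score 12.0) and liver (19.5) and the Vegfa region of heart (11.5) were kept too. With this subset, 2 members were covered in heart and 1 in kidney, with 2 in liver and 2 in lung, and 15 pathway genes in liver and 7 in lung, against 28 and 23 with all regions. At 25% of the span the members covered were 7 in heart and 8 in kidney, and the pathway genes 37 in heart, 41 in kidney and 36 in lung. At 75% the members were 1 in kidney and 2 in liver, and the pathway genes 12 in lung. For counts under the alternatives, here and above, the share of all genes at the same setting was not computed. Those counts therefore cannot be set against a background. No paired analysis was possible because each organ has 1 list and no test was run. Heart had the fewest tags, and a gene without a region there was not called and is not shown to lack Pol II.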
